A study of Homo sapiens with 12 samples.

Results

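The genes described here encode the receptors of the death ligand TRAIL, the ligand itself, and the receptors FAS and TNFR1. They are TNFRSF10A, TNFRSF10B, TNFRSF10C, TNFRSF10D, TNFSF10, FAS and TNFRSF1A. These 7 genes were followed in 3 sarcoma lines of human origin, with 4 arrays a line: untreated, with 250 µmol/l taurolidine, with 50 ng/ml TRAIL, or with both agents, for 6 h. A-204 is labelled rhabdomyosarcoma, SK-LMS-1 leiomyosarcoma and VA-ES-BJ epithelioid sarcoma. Taurolidine is an antimicrobial taurine derivative that also kills tumour cells in culture. All probe sets that the platform annotation assigns to one of these genes alone were taken, which gave 22 of 54675. A probe set is a group of short probes that together give 1 signal, here in the MAS5 unit on a linear scale. There was 1 array for each line and treatment, 12 in all, and nothing says whether the arrays of a line came from separate cultures. The p-values for treatments therefore rest on how unlike the changes of the 3 lines were, from which technical spread cannot be told apart. For the comparisons of lines, the 4 differently treated arrays of a line stand as its repeats. For changes within a line, the arrays with and without TRAIL do. None of the p-values is known to measure a spread between separate cultures of a line.

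TRAIL binds TNFRSF10A (death receptor 4) and TNFRSF10B (death receptor 5), whose cytoplasmic death domains recruit the adaptor FADD and caspase 8 and so start apoptosis. TNFRSF10C lacks a death domain and TNFRSF10D carries a truncated one, so both bind TRAIL without passing on the death signal and are called decoy receptors. FAS signals through the same adaptor, while TNFRSF1A, the main receptor of tumour necrosis factor, first assembles a complex that activates NF-kB. In the reference annotation the protein-coding genes TNFRSF10B, TNFRSF10C, TNFRSF10D and TNFRSF10A follow each other with no other protein-coding gene between them. The TNFSF10 transcript measured is the cells' own, whereas the TRAIL given to the cells was added from outside.

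The untreated lines matched their labels only in part. In A-204 the skeletal muscle regulators MYOD1, MYOG and MYF5 stood at 28.6, 10.2 and 5.32, all under the median of the whole table, 136.5. Of the smooth muscle genes SK-LMS-1 was highest for TAGLN (9763, VA-ES-BJ 4245), CNN1 (661) and MYH11 (137), but not for ACTA2 (1686, VA-ES-BJ 4980) or DES (127, VA-ES-BJ 145). VA-ES-BJ was highest for the keratin genes KRT8, KRT18 and KRT19 (16153, 18904 and 16189) and lowest for SMARCB1, which is typically lost in epithelioid sarcoma, at 152 against 1235 and 3530. It was also lowest for MUC1 (292), and EPCAM was at 130 there against 1915 in A-204. Of the leukocyte markers PTPRC, CD14 and LYZ were at 6.94 to 125 in the untreated lines, CD3E at 96.4 to 165, and CORO1A at 1397, 21.4 and 987 for A-204, SK-LMS-1 and VA-ES-BJ. Of the endothelial ones CDH5, VWF and KDR were at 8.34 to 93.2, PECAM1 at 175 to 389, and TIE1 at 2475 for SK-LMS-1 and under 10 for the other lines. The erythroid HBB was at 116 to 224 and ALAS2 at 17.7 to 93.5. Array medians ran from 123.2 to 155.4.

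Of the 7 genes 3 matched the RefSeq promoter table, and the upstream sequence of each of these is shown to place it beside its values. They are the 250 bases before the RefSeq start site in GRCh38.p14, read 5′ to 3′ on the gene's strand, and for FAS, with 3 starts listed, before the most upstream one. Capitals mark matches to 6 motifs searched on both strands, and no matches overlapped. The letters were GGGCGG for the GC box, TATAAA for the TATA box, TGANTCA for AP-1 and TGACGTCA for the cAMP response element. The interferon-stimulated response element was GAAA, any 2 bases, then GAAA again, and the NF-kB motif was GGG, any 2 bases, then TTTCC.
TNFRSF1A, chr12:6342077-6342326, minus strand: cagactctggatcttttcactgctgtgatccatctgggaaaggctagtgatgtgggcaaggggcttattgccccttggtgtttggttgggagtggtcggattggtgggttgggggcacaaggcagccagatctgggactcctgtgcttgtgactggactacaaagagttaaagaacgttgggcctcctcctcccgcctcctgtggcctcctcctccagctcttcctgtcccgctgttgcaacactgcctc
TNFSF10, chr3:172523431-172523680, minus strand: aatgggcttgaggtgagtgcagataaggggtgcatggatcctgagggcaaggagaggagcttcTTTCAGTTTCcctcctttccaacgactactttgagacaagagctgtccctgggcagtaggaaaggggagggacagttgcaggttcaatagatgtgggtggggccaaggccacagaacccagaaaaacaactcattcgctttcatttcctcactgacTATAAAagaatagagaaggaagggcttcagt
FAS, chr10:88990548-88990797, plus strand: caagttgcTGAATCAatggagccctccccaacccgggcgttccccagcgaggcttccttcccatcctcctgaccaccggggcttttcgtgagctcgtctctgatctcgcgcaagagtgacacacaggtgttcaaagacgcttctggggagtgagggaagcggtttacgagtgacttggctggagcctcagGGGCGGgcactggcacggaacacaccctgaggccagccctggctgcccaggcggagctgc
TNFSF10 held 1 TATA box, at 31 to 26 bases before the start, and 1 interferon-stimulated element, at 187 to 178 bases. FAS held 1 GC box at 60 to 55 bases and 1 AP-1 match at 242 to 236 bases, and TNFRSF1A held none of the 6 motifs. Among 35116 such windows of all genes, 42.6% held the GC box, 10.7% the TATA box, 6.57% the AP-1 motif and 3.02% the interferon-stimulated element. The cAMP response element was in 1.65% and the NF-kB motif in 1.73%. A match is a description of the letters and not evidence of a bound site.

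Of the 22 probe sets, 19 exceeded the table median on at least 3 arrays and were tested. The 3 others belong to TNFRSF10C. A linear model with terms for treatment and cell line was fitted with limma to all 32421 probe sets that passed this filter, on the log2 scale after 11.8 was added. P-values were adjusted over all of them by the Benjamini-Hochberg method, and a probe set was called at an adjusted p under 0.05.

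The largest differences were between the lines. VA-ES-BJ had the highest signals on the bright probe sets of TNFRSF10B and FAS, SK-LMS-1 had the lowest of TNFRSF10A and TNFSF10, and SK-LMS-1 was highest for the decoy gene TNFRSF10D. Across the 12 arrays, with treatment as a term, 17 of 19 tested probe sets differed between lines. Among all tested probe sets 67.3% did, so such a share is common in these lines. The 17 include the 3 probe sets of TNFSF10, which exceeded the table median only in A-204 and VA-ES-BJ. They also include 233820_at of FAS, which exceeded it on 4 VA-ES-BJ arrays and 1 other. A further one is 231775_at of TNFRSF10A, which exceeded it on too few SK-LMS-1 arrays to pass by that line. All of these passed the filter only through the lines in which they were bright. That selection favours a difference between lines, so their calls support nothing. By pairs of lines, 14 of 19 differed between SK-LMS-1 and A-204 (5 higher and 9 lower in SK-LMS-1, against 49.3% of all tested). Between VA-ES-BJ and A-204 it was 8, all higher in VA-ES-BJ and all of TNFRSF10B or FAS (49.7% of all tested). Between VA-ES-BJ and SK-LMS-1 it was 16, with 14 higher in VA-ES-BJ (50.4% of all tested). The 3 probe sets of TNFSF10 and 231775_at are among the 9 lower in SK-LMS-1 and among the 16, and 233820_at is among the 8. These counts therefore carry the same limit.

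**Figure D1:**
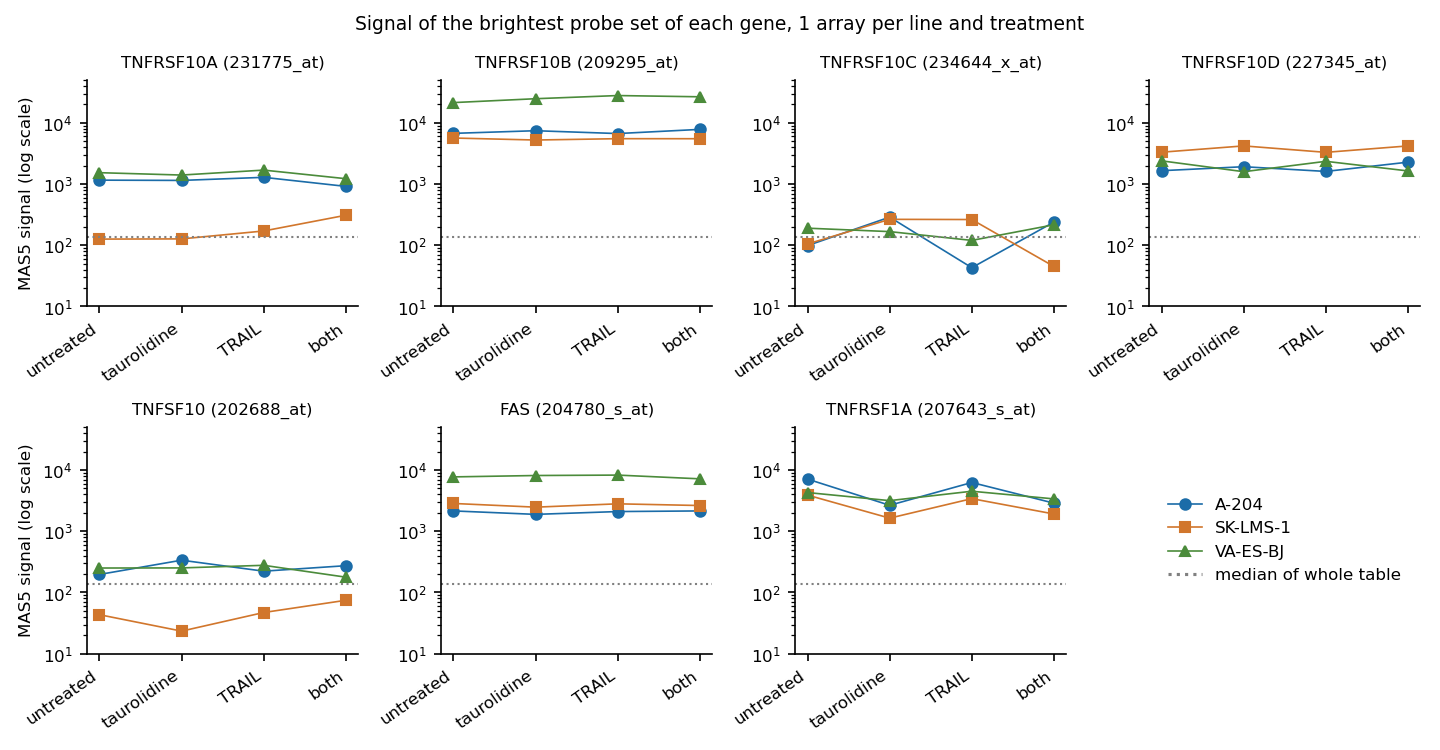
MAS5 signal (log axis) of the brightest tested probe set of each of the 7 genes on each array, by treatment, with 1 symbol for each cell line; lines only join arrays of the same cell line. The dotted line is the median of the whole table, 136.5. VA-ES-BJ stands apart for TNFRSF10B and FAS, and SK-LMS-1 lies lowest for TNFRSF10A. It also does for TNFSF10. The probe sets shown for TNFRSF10A and TNFSF10 entered the tests only through the other lines.

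TNFSF10 was dim throughout. Its probe set 202688_at read 197, 337, 223 and 274 in A-204 (untreated, taurolidine, TRAIL and both, the order used throughout), and 251, 252, 278 and 178 in VA-ES-BJ. In SK-LMS-1 it read 43.4, 23.4, 47.1 and 74.6, all under the table median. The SK-LMS-1 arrays did not overlap those of the other lines. The probe set passed the filter only through those lines, so this is no support for a difference. All 3 probe sets of the ligand were lowest in SK-LMS-1, where none exceeded the table median on any array. The means over 4 arrays of A-204, SK-LMS-1 and VA-ES-BJ were 258, 47.1 and 240 for 202688_at, 132, 24.4 and 130 for 202687_s_at, and 150, 34.3 and 172 for 214329_x_at. No fold is given for SK-LMS-1, since its signals lie where a level is poorly measured. Between VA-ES-BJ and A-204 the differences were -0.09, -0.01 and 0.21 on the log2 scale, none called.

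TNFRSF10A, the death receptor 4 gene, was lowest in SK-LMS-1 on all 3 probe sets. For 231775_at the signals were 1157, 1145, 1286 and 915 for A-204, 126, 127, 171 and 309 for SK-LMS-1, and 1532, 1401, 1688 and 1222 for VA-ES-BJ. Every SK-LMS-1 array lay under every array of the other lines, and 2 of them lay under the table median. SK-LMS-1 was 6.17-fold below A-204 (-2.63 ± 0.27, adjusted p = 9.3e-05), and VA-ES-BJ 7.99-fold above SK-LMS-1 (adjusted p = 4.1e-05). With only 2 SK-LMS-1 arrays above the table median, 231775_at passed the filter only through the other lines. Its calls against SK-LMS-1 are therefore no support for a difference, and these folds are poorly measured. The probe sets 1552648_a_at and 241371_at exceeded the median on 12 and 11 arrays. For these SK-LMS-1 was below A-204 by 3.63-fold and 4.13-fold (adjusted p = 0.00015 and 9.1e-06). Between VA-ES-BJ and A-204 the 3 probe sets differed by 0.37, -0.03 and 0.05 on the log2 scale, none called. The SK-LMS-1 difference is what the calls for TNFSF10 and TNFRSF10A rest on. Without that line, 1 of the 6 probe sets of these genes remained called, 231775_at, and only 9 of all 19.

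TNFRSF10B, the death receptor 5 gene, was brightest in VA-ES-BJ. Probe set 209295_at read 6720, 7422, 6672 and 7805 for A-204, 5641, 5231, 5503 and 5494 for SK-LMS-1, and 21377, 24730, 27862 and 26589 for VA-ES-BJ. The VA-ES-BJ arrays were all above the others, and those of A-204 all above those of SK-LMS-1. VA-ES-BJ was 3.50-fold above A-204 (1.81 ± 0.11, adjusted p = 4.1e-06), and SK-LMS-1 was 1.31-fold below A-204 (-0.38 ± 0.11, adjusted p = 0.017). The probe sets 209294_x_at and 210405_x_at put VA-ES-BJ above A-204 by 3.13-fold and 3.37-fold. In the naming of this array family the ending _x marks probes that may also match other transcripts, and _s probes shared by transcripts. The fourth probe set, 1556645_s_at, lay between 87.3 and 296 and was not called between lines (adjusted p = 0.22).

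FAS followed the same order as death receptor 5 on top, with a different second place. For 204780_s_at the signals were 2150, 1888, 2099 and 2149 for A-204, 2846, 2476, 2808 and 2633 for SK-LMS-1, and 7729, 8141, 8271 and 7186 for VA-ES-BJ. None of these groups of 4 overlapped. VA-ES-BJ was 3.76-fold above A-204 (1.91 ± 0.09, adjusted p = 1.6e-06), and SK-LMS-1 1.30-fold above A-204 (0.38 ± 0.09, adjusted p = 0.011). The probe sets 215719_x_at and 216252_x_at placed SK-LMS-1 above A-204 by 0.47 and 0.66 on the log2 scale (adjusted p = 0.0079 and 0.0014), whereas 204781_s_at gave 0.13 ± 0.15, not called. Over the 4 brighter probe sets VA-ES-BJ exceeded A-204 by 1.91 to 2.41. The dim 233820_at read 193 to 288 in VA-ES-BJ, 16.1 to 127 in A-204 and 104 to 137 in SK-LMS-1. In the reference annotation the protein-coding neighbours of FAS are ACTA2 and CH25H.

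The decoy receptor gene TNFRSF10D was brightest in SK-LMS-1. Its probe set 227345_at read 3308, 4193, 3291 and 4190 there, 1651, 1917, 1606 and 2275 in A-204, and 2390, 1589, 2348 and 1636 in VA-ES-BJ. SK-LMS-1 did not overlap the other lines, which overlapped each other. It was 2.01-fold above A-204 (1.01 ± 0.20, adjusted p = 0.0037) and VA-ES-BJ was 1.90-fold below it (-0.92 ± 0.20, adjusted p = 0.0055). The second probe set, 210654_at, placed SK-LMS-1 above A-204 by 0.78 ± 0.22 (adjusted p = 0.020). VA-ES-BJ against SK-LMS-1 gave -0.71 ± 0.22 (adjusted p = 0.029), although the untreated signals were 506 and 552. The test of 210654_at over all lines was not called without the filter (adjusted p = 0.051). Nor was it called without A-204 (adjusted p = 0.059) or without SK-LMS-1 (adjusted p = 0.84).

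TNFRSF10C was not measured at a level that allows an order. The probe sets 206222_at and 211163_s_at never exceeded the table median, with ranges of 6.70 to 112 and 6.42 to 92.9, and 234195_at exceeded it on 1 array, at 171. The tested one, 234644_x_at, ranged from 43.0 to 288 and did not differ detectably between lines (adjusted p = 0.88). A further 2 probe sets are assigned to this gene together with LOC254896 and cannot be given to either. They ranged from 133 to 482 (210483_at) and from 51.1 to 317 (210484_s_at).

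TNFRSF1A was bright in all lines, and the single probe set 207643_s_at represents it. SK-LMS-1 was 1.69-fold below A-204 (-0.75 ± 0.18, adjusted p = 0.0081), and VA-ES-BJ 1.49-fold above SK-LMS-1 (0.57 ± 0.18, adjusted p = 0.026). Between VA-ES-BJ and A-204 the difference was -0.18 ± 0.18 (adjusted p = 0.43). These differences average arrays with and without taurolidine. Untreated, the signals were 7115 for A-204, 3899 for SK-LMS-1 and 4290 for VA-ES-BJ. With taurolidine alone they were 2657, 1638 and 3166, so A-204 lay above VA-ES-BJ untreated and below it with taurolidine. The test over all 3 lines was not called with spike scaling (adjusted p = 0.17) or without SK-LMS-1 (adjusted p = 0.53), and over 11 alternatives its adjusted p lay between 0.0039 and 0.53.

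**Figure D2:**
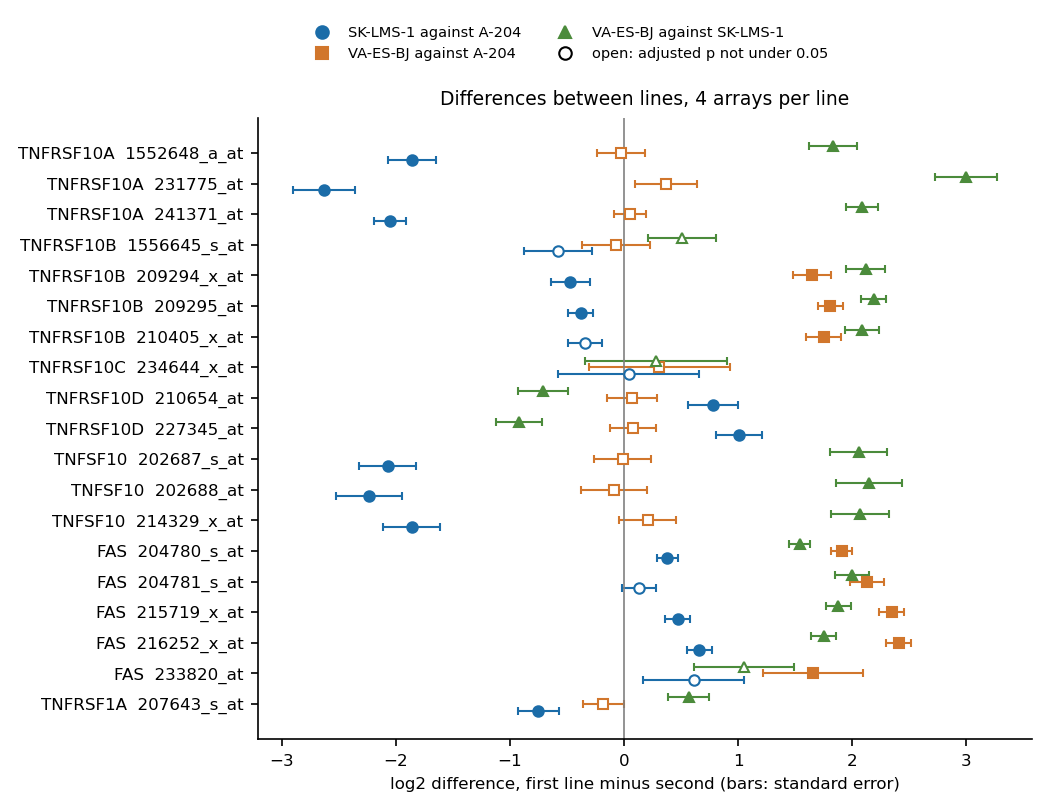
Differences between lines on the log2 scale for the 19 tested probe sets, with standard errors, from the model with treatment as a term and 4 arrays per line; filled symbols have an adjusted p under 0.05. The probe sets of TNFRSF10A place SK-LMS-1 low, the bright ones of TNFRSF10B and FAS place VA-ES-BJ high, and those of TNFRSF10D place SK-LMS-1 high. Those of TNFSF10 also place SK-LMS-1 low, but they and 231775_at of TNFRSF10A passed the filter only through the other lines.

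The treatment comparisons ask whether either agent changed the transcripts of the receptors through which TRAIL acts. With taurolidine alone, 1 of 19 tested probe sets was called against untreated cells, that of TNFRSF1A, which fell. Among all tested probe sets 13.6% were called, and 9.65% were called lower, so the share among these genes, 5.26%, was not above the background. The median change of the 19 was -0.10 and that of all tested probe sets -0.06. At an unadjusted p under 0.05 there were 5 of 19 (26.3%), against 30.3% of all tested probe sets.

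TNFRSF1A was lower with taurolidine in all 3 lines. Its signal was 7115 untreated, 2657 with taurolidine, 6259 with TRAIL and 2879 with both in A-204. SK-LMS-1 gave 3899, 1638, 3410 and 1915, and VA-ES-BJ gave 4290, 3166, 4507 and 3380. The 6 arrays with taurolidine lay between 1638 and 3380 and the 6 without it between 3410 and 7115, so the groups did not overlap. The mean was 2487 ± 778 with taurolidine and 5102 ± 1755 untreated (SD, n = 3 lines), a 2.05-fold fall on the fitted scale (-1.03 ± 0.20, adjusted p = 0.018). With both agents it was 1.85-fold below untreated cells (-0.89 ± 0.20, adjusted p = 0.029), and over both TRAIL states 1.88-fold below (-0.91 ± 0.14, 95% interval -1.24 to -0.58, adjusted p = 0.0035). Within lines, the change over both TRAIL states was -1.27 in A-204 (adjusted p = 0.0023), -1.04 in SK-LMS-1 (adjusted p = 0.0084) and -0.43 in VA-ES-BJ (adjusted p = 0.12). The difference between lines in this change was not called (adjusted p = 0.20). The fall with taurolidine alone was called under 7 of 13 alternatives, with adjusted p from 0.0013 to 0.39, and not with any line left out (-0.93 without SK-LMS-1, -0.84 without A-204, -1.33 without VA-ES-BJ, adjusted p 0.053 to 0.17). Its direction was down in each.

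**Figure D3:**
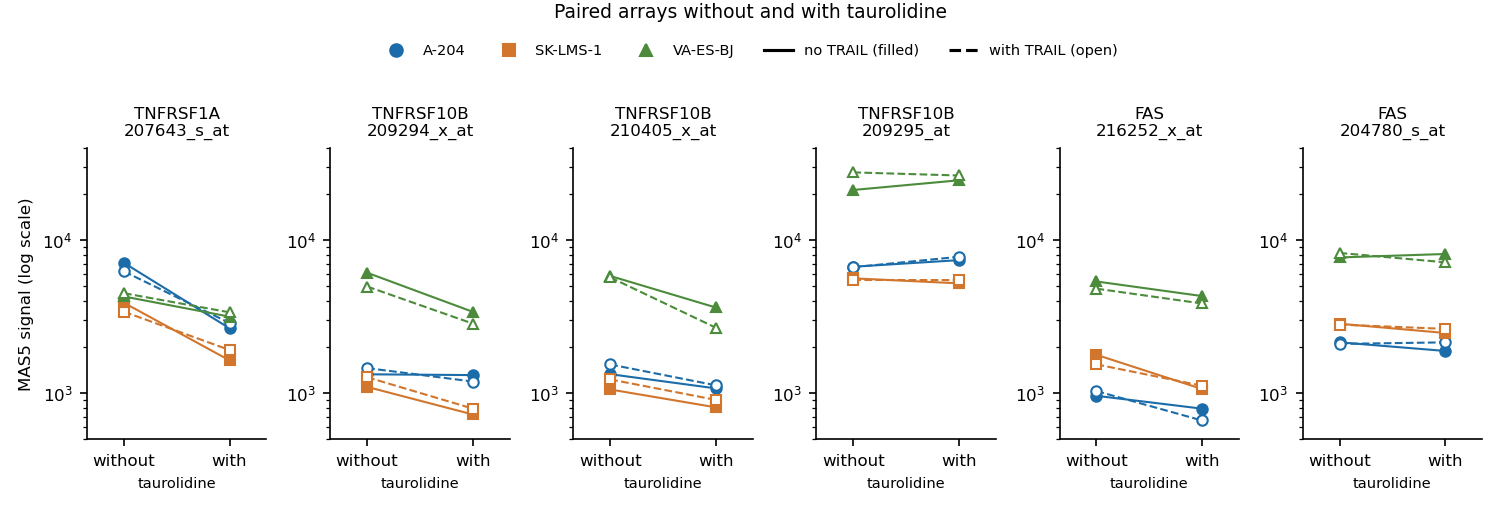
MAS5 signal (log axis) on arrays without and with taurolidine for 6 probe sets of TNFRSF1A, TNFRSF10B and FAS. Each line joins 2 arrays of the same cell line and TRAIL state (solid and filled without TRAIL, dashed and open with it). TNFRSF1A falls in all 6 pairs, and so do 209294_x_at and 210405_x_at of TNFRSF10B, whereas 209295_at rises in 3 pairs and falls in 3.

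Comparing the 6 arrays with taurolidine against the 6 without it raised the number of called probe sets to 5 of 19, all lower: TNFRSF1A, and 2 each of TNFRSF10B and FAS. Among all tested probe sets 28.4% were called and 17.4% were called lower, against 26.3% here, so this share is near the background too. The poly-A spike RNAs, added to each sample before labelling, were higher on the arrays with taurolidine by 0.59 on the log2 scale (A-204 0.73, SK-LMS-1 0.52, VA-ES-BJ 0.54). Scaling to them moved the median change of all tested probe sets from -0.02 to -0.58, so every direction below is relative to the mean brightness of an array. A change in the total messenger RNA of a cell cannot be told apart from it.

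TNFRSF10B gave different answers by probe set. On 209294_x_at the signals were 1328, 1312, 1458 and 1191 for A-204, 1098, 725, 1271 and 792 for SK-LMS-1, and 6138, 3408, 4987 and 2854 for VA-ES-BJ. In every pair of arrays the one with taurolidine was lower, by little in A-204. This probe set fell 1.45-fold (-0.54 ± 0.14, adjusted p = 0.022). The similar 210405_x_at read 1330, 1074, 1540 and 1125, then 1056, 807, 1229 and 903, and then 5847, 3635, 5723 and 2682, and fell 1.47-fold (-0.56 ± 0.13, adjusted p = 0.014). Within lines, 209294_x_at and 210405_x_at were called only in VA-ES-BJ (-0.82 and -0.89, adjusted p = 0.028 each). A-204 gave -0.15 and -0.38, and SK-LMS-1 -0.63 and -0.41, none called. The difference between lines in these changes was not called (adjusted p = 0.36 and 0.50). By contrast 209295_at, the brightest of this gene, changed by 0.07 ± 0.09 (95% interval -0.13 to 0.27, adjusted p = 0.61), a value that became -0.53 when scaled to the spikes. The dim 1556645_s_at gave -0.17 ± 0.25 over all lines. It fell by 1.09 ± 0.13 in A-204 (adjusted p = 0.0031), from 283 and 296 without taurolidine to 112 and 149 with it. SK-LMS-1 and VA-ES-BJ gave 0.44 and 0.16, neither called. Of the 19 probe sets it had the smallest p for a difference between lines in the taurolidine change (unadjusted p = 0.00022, adjusted p = 0.061), and 0 of 9 alternatives called it (adjusted p 0.054 to 0.67). Both falls of the _x probe sets were lost with quantile normalisation (-0.41 and -0.43, adjusted p = 0.094 and 0.066) and with any line left out (-0.73 to -0.39, adjusted p 0.051 to 0.15). Over all 11 alternatives their adjusted p lay between 0.00019 and 0.83.

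The disagreement between probe sets of a gene was tested directly, a test chosen after the values were seen. The 10 pairs of probe sets of 1 gene that exceeded the table median on all 12 arrays were compared. The difference in taurolidine change was taken in each of 6 pairs of arrays, 2 from each of 3 lines. The test treats the 6 as independent, although pairs of a line may be alike. Taken by line, it could not give a p under 0.05. The change of 209294_x_at was lower than that of 209295_at by 0.60 on average (-0.60, SD 0.30, n = 6, lower in 6 of 6, exact sign-flip permutation p = 0.031, adjusted p = 0.062 over the 10). For 209295_at against 210405_x_at the difference was 0.63 (SD 0.29, n = 6, higher in 6 of 6, exact permutation p = 0.031, adjusted p = 0.062). The 2 _x probe sets differed by 0.02 (SD 0.25, n = 6, exact permutation p = 0.81). The value 0.031 is the smallest that 6 pairs can give in this two-sided test, and 5 of the 10 comparisons reached it. None passed 0.05 after adjustment. The transcripts that each probe set detects were not analysed here, and their part in the difference was not tested.

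FAS showed small falls on its _x probe sets. For 216252_x_at the signals were 960, 791, 1031 and 662 for A-204, 1781, 1064, 1542 and 1118 for SK-LMS-1, and 5380, 4319, 4827 and 3861 for VA-ES-BJ, lower with taurolidine in each pair. It fell 1.37-fold over both TRAIL states (-0.46 ± 0.09, adjusted p = 0.0081), and 1.47-fold with both agents against untreated cells (-0.56 ± 0.13, adjusted p = 0.028). With taurolidine alone it stood at -0.44 ± 0.13 (adjusted p = 0.055), not called. The probe set 215719_x_at fell 1.26-fold over both TRAIL states (-0.33 ± 0.09, adjusted p = 0.027), without overlap within A-204 or SK-LMS-1, whereas in VA-ES-BJ 7499 with taurolidine alone exceeded 7471 with TRAIL alone. In contrast 204780_s_at changed by -0.10 ± 0.08 (95% interval -0.27 to 0.08) and 204781_s_at by -0.20 ± 0.12, neither called. The change of 204780_s_at was above that of 216252_x_at by 0.36 (SD 0.23, n = 6, in 6 of 6 pairs, exact permutation p = 0.031, adjusted p = 0.062). Here too the 6 pairs came from 3 lines and were treated as independent. The calls of both _x probe sets over both TRAIL states were lost with any line left out, with values of -0.53 to -0.27 and adjusted p from 0.056 to 0.22. Over the alternatives the adjusted p lay between 0.00014 and 0.95.

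Before spike scaling, TNFRSF10A, TNFSF10 and TNFRSF10C had no called change with taurolidine over all lines or within one. TNFRSF10A changed by -0.09 ± 0.17, -0.04 ± 0.22 and -0.04 ± 0.11 over both TRAIL states on 1552648_a_at, 231775_at and 241371_at. The 95% intervals reached from -0.55 to 0.46 at the widest. TNFSF10 changed by -0.01 ± 0.20, 0.05 ± 0.24 and 0.07 ± 0.21 on 202687_s_at, 202688_at and 214329_x_at. TNFRSF10C, on its 1 tested probe set, gave 0.54 ± 0.51. Scaled to the spikes, TNFRSF10A was called lower over both TRAIL states on 1552648_a_at (-0.67, adjusted p = 0.015) and 241371_at (-0.61, adjusted p = 0.003). With that scaling TNFSF10 was called lower on 202687_s_at (-0.52, adjusted p = 0.046).

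TNFRSF10D differed in sign between lines on its brighter probe set, with a called fall only in VA-ES-BJ, and the difference between lines was not called. On 227345_at both arrays with taurolidine were above both arrays without it for A-204 and SK-LMS-1, and below both for VA-ES-BJ. The change over both TRAIL states was 0.36 for A-204 and 0.34 for SK-LMS-1, neither called (adjusted p = 0.074 and 0.11), and -0.55 in VA-ES-BJ (adjusted p = 0.032). The mean over lines was 0.05 ± 0.17, and -0.54 when scaled to the spikes. That test gave an adjusted p of 0.10, and 2 of 11 alternatives called it, with adjusted p from 0.027 to 0.99. Of the 19 probe sets none was called in this test, while among all tested probe sets 0.250% were. At an unadjusted p under 0.05 there were 5 (26.3%), against 14.6% of all tested. The dimmer 210654_at read 506, 310, 445 and 176 in VA-ES-BJ, a change of -0.98 there (adjusted p = 0.039), while A-204 gave -0.04 and SK-LMS-1 -0.16. Counted within lines, 3, 2 and 4 of the 19 were called over both TRAIL states in A-204, SK-LMS-1 and VA-ES-BJ. Among all tested probe sets the shares were 19.8%, 10.1% and 9.56%.

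**Figure D4:**
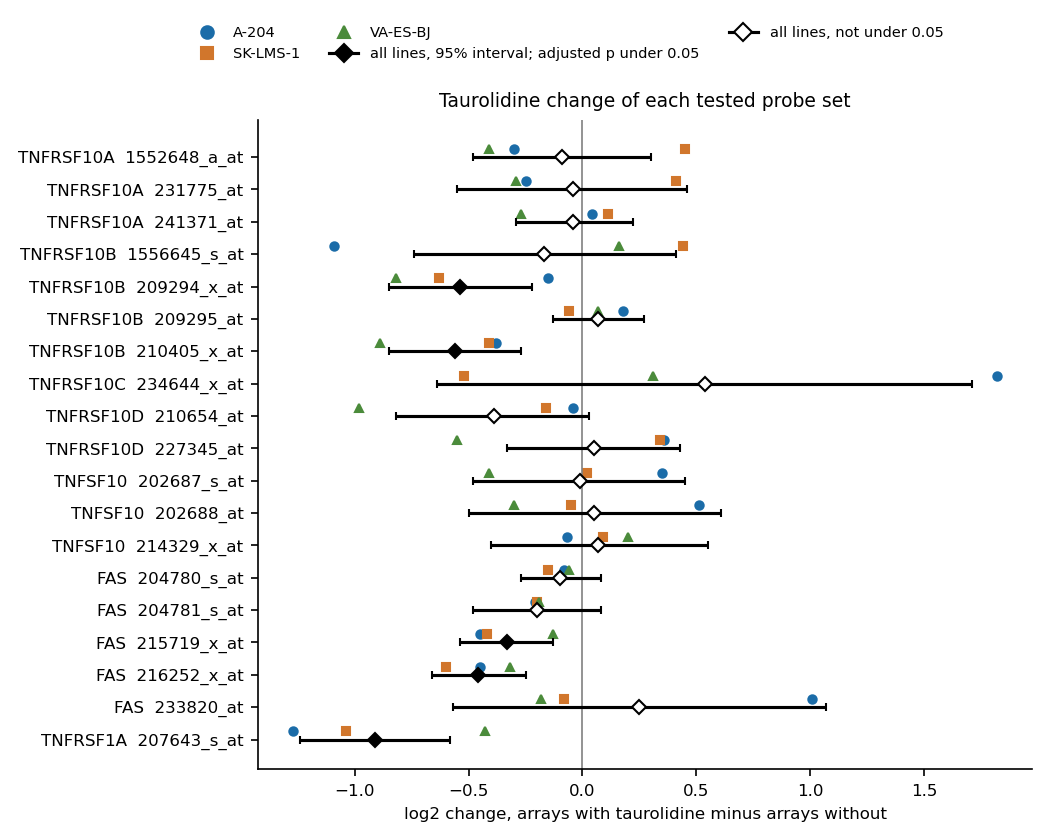
Change with taurolidine over both TRAIL states on the log2 scale for the 19 tested probe sets; diamonds are the estimate over all lines with its 95% interval, filled where the adjusted p is under 0.05, and coloured symbols are the values of each line. The 5 called probe sets lie below 0, and for 227345_at of TNFRSF10D the lines lie on both sides of 0.

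TRAIL alone was followed by no called change in any of these genes, including its own receptors. None of 19 probe sets was called by limma and none had an unadjusted p under 0.05, and among all tested probe sets 0% were called, with 1393 of 32421 at an unadjusted p under 0.05. The changes ranged from -0.58 for TNFSF10 (214329_x_at) to 0.52 for TNFSF10 (202687_s_at), so the extremes in both directions came from dim probe sets of the ligand gene. For the brightest probe sets of the death receptors the 95% interval was -0.17 to 0.40 for TNFRSF10B (209295_at) and -0.48 to 0.94 for TNFRSF10A (231775_at). It was -0.24 to 0.27 for FAS (204780_s_at) and -0.57 to 0.37 for TNFRSF1A. Over both taurolidine states TRAIL again gave none of 19 called, against 0% of all tested probe sets. None of the 19 had an unadjusted p under 0.05.

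With both agents, 2 of 19 probe sets were called against untreated cells, those of TNFRSF1A and FAS given above, and both fell. Among all tested probe sets 12.8% were called and 9.10% were called lower, against 10.5% here. The fall of FAS on 216252_x_at was called under 5 of 12 alternatives, with adjusted p from 0.0028 to 1.0. That of TNFRSF1A was called under 7 of 13, with adjusted p from 0.0052 to 0.52. Neither was called without A-204, SK-LMS-1 or VA-ES-BJ, with values of -1.16 to -0.68 for TNFRSF1A and -0.60 to -0.50 for FAS. On 209294_x_at and 210405_x_at TNFRSF10B stood at -0.57 and -0.53, not called (adjusted p = 0.089 and 0.090), although with only probe sets above the table median on all arrays both were (adjusted p = 0.035 each). The comparisons with taurolidine and with both agents share the untreated arrays. The departure of the combination from the sum of the single changes on the log2 scale was called for none of 19. Among all tested probe sets it was called for 0%. The 1 probe set with an unadjusted p under 0.05 was 202687_s_at of TNFSF10 (-1.31 ± 0.40, unadjusted p = 0.012, adjusted p = 1.0). Its signals were 92.8, 182, 136 and 117 for A-204, 9.62, 37.0, 39.6 and 11.3 for SK-LMS-1, and 159, 142, 138 and 83.0 for VA-ES-BJ.

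Genes around these receptors were counted in the same fit, from lists made with earlier results of these data known. Among the other death and decoy receptors, with 12 tested probe sets of 6 genes, none was called with taurolidine. The largest changes were those of TNFRSF1B, the second receptor of tumour necrosis factor, at -1.10 ± 0.41 (adjusted p = 0.12), and TNFRSF25 at -0.87 ± 0.38 (adjusted p = 0.17), both dim. TNFRSF11B, which encodes osteoprotegerin, a soluble receptor that also binds TRAIL, gave -0.19 and -0.02. Of the other death ligands only LTB and TNFSF15 were tested, on 3 probe sets between -0.04 and 0.10, none called. The FAS ligand gene FASLG was not among those tested. With both agents and with TRAIL alone the counts of these 2 lists were also 0.

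Of the transcripts of proteins that signal next to the receptors, 7 of 46 tested probe sets, of 15 genes, were called with taurolidine, 6 lower and 1 higher. These are 15.2% called and 13.0% lower, against 13.6% and 9.65% of all tested probe sets, so the share is near the background. FADD fell by 2.30 ± 0.18 (mean signal 867 against 4516) and CASP8, on 1 of its probe sets, by 1.06 ± 0.18. TNFAIP3, a deubiquitinase that limits NF-kB signalling, fell on 2 probe sets, by 1.05 ± 0.20 and 0.95 ± 0.21, and OTULIN, which removes linear ubiquitin chains, fell by 0.84 ± 0.12 on 1 probe set, with -0.53 ± 0.55 and 0.19 ± 0.34 on the others, not called. BIRC2, an inhibitor of apoptosis that ubiquitinates RIPK1, fell by 0.46 ± 0.12. RBCK1, of the linear ubiquitin ligase complex, rose by 0.42 ± 0.11 (adjusted p = 0.038). The counts with both agents were the same, and those with TRAIL alone were 0.

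Among enzymes that shed or glycosylate the receptors, 1 of 18 probe sets (5.56%, against 13.6% of all tested) was called with taurolidine, of the fucosyltransferase gene FUT4 (-1.08 ± 0.29, adjusted p = 0.046). The second FUT4 probe set gave -1.02 ± 0.47 (adjusted p = 0.19). ADAM17, the sheddase of TNFRSF1A, changed by -0.23 to 0.05 on 3 probe sets, none called. Of transcription factors known to act on these genes, 6 of 27 probe sets (22.2%, against 13.6% of all tested) were called, 4 higher and 2 lower. ATF4 rose by 1.04 ± 0.13 and EGR1 by 1.23 to 2.12 on 3 probe sets, while FOXO3 fell by 0.84 ± 0.16 and 0.57 ± 0.13 on 2 probe sets, with -0.07 ± 0.23 on the third, not called. The list medians were -0.22 for receptors, 0.00 for ligands, -0.12 for proximal signalling, -0.08 for shedding and glycosylation and 0.06 for transcription factors, against -0.06 for all probe sets.

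The genes whose pattern was most like each of the 7 were found by Pearson correlation of log2 values over the 12 arrays. Only the brightest tested probe set of each of the 7 was used, and the values are a description. The arrays share lines and treatments, so the values largely reflect the lines. Each value is among the highest of many probe sets, and even the dim TNFRSF10C reached 0.93 after line means were subtracted. TNFRSF10A was most like RAB11FIP1, WNK3 and SLC16A9 (0.99 each) and TNFRSF10B most like PLAU (1.00), TM9SF3 and PAX6 (0.99 each). FAS was most like LRRN4, OGFRL1 and ARHGAP26 (0.99 each), and TNFRSF1A most like PYGO1, IRF2BP2 and CIPC (0.98 each). TNFSF10 was most like ABAT (0.98), CYP1B1 and CBR4 (0.97 each), and TNFRSF10D most like WIF1, TNPO1 (0.97 each) and ZC2HC1A (0.96). For the dim TNFRSF10C the leading genes were TRIM46 (0.82), CGN (0.81) and KIF9 (0.80). After each line's mean was subtracted, TNFRSF1A was most like CYREN, UNC50 and CEMIP2 (0.99 each), and TNFRSF10D most like HEXIM1 (0.98), TSC22D1 (0.96) and PDK3 (0.94). On the same footing 209295_at of TNFRSF10B was most like HSPA5 (0.97), the main chaperone of the endoplasmic reticulum, and LINC00424 and HTATIP2 (0.93 each). The other probe sets of this gene were not examined for likeness. With taurolidine over both TRAIL states 209294_x_at and 210405_x_at changed by -0.54 and -0.56, against 0.07 for 209295_at. TNFRSF10A was then most like RAB11FIP1 (0.94), EFS and BAIAP2 (0.93 each), and FAS most like ARPC5 (0.94), CD209 (0.91) and BDP1 (0.90). TNFSF10 was most like OSER1-DT (0.94), ARSK (0.92) and SLC30A5 (0.90), and TNFRSF10C most like TRIM66 (0.93), TRIM46 (0.91) and PLD1 (0.90).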

How the data were processed

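The authors deposited 1 table of linear intensity values, made with MAS5 per the submitters' processing notes. For the MAS5 version and target brightness, the answer is not given in the sources used here. The mean without the lowest and highest 2% was 1000.1 to 1000.2 on every array, so arrays had been brought to a common mean brightness before deposit. Probe sets were named from the platform annotation, with current symbols through the RefSeq gene table (GRCh38.p14): 41097 had 1 gene, 1801 several and 11777 none. The 62 controls were not tested.

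Values entered as log2(value + 11.8), the 10th percentile of the table, without further normalisation, if they exceeded the table median of 136.5 on at least 3 of 12 arrays. The fit used limma 3.58.1 under R 4.3.3 (6 residual and 2.04 prior degrees of freedom), with treatment and cell line as terms. A separate model with line, taurolidine, their interaction and TRAIL gave the values within lines. The procedure was also run on simulated data with independent noise. Its outcome is not given here, so it is no support for the calls. Arrays of a line were paired across treatments, since they came from the same line. After treatment means were subtracted, arrays correlated at 0.785 to 0.869 within lines and at -0.538 to -0.350 between them. Subtracting these means by itself pulls the values between lines below 0, so they do not show opposed profiles. The number of arrays limits the precision.

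All probe sets of the members are given. Listed genes were named where a probe set was called, up to 4 a list by size of change, otherwise the 2 largest changes; RBCK1, BIRC2, TNFRSF11B, the ligands, ADAM17 and further probe sets of FUT4, OTULIN and FOXO3 were added after their values were seen. The members and lists were chosen with earlier results of these data known. The alternatives were other constants, filters, scalings, 1 probe set per gene, no line term, only the arrays compared, and each line left out.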

Additional observations from a re-analysis of the deposited data

Results flagged for a closer look

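The poly-A spike control probe sets, which take no part in the comparisons, were higher by 0.59 on the log2 scale on arrays with taurolidine than on those without it. They rose in 3 of 3 lines, by 0.52 to 0.73. Their part in the falls of TNFRSF1A, TNFRSF10B and FAS was not tested beyond the scaling given below.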

How the results depend on the processing

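The counts are of the tested probe sets of the 7 genes, each followed by the share of all tested probe sets called. With taurolidine alone 1 was called as reported (13.6%), 2 with a constant of 50 (15.1%), 0 without a filter (1638 of 54613), 3 of 11 with only probe sets above the table median on all arrays (30.7%), 11 with spike scaling (54.6%) and 0 with only the 6 arrays compared (0%). With both agents 2 were called as reported (12.8%), 0 without a filter (2.84%), 5 of 11 with the strict filter (30.5%), 8 with spike scaling (34.6%), 1 of 7 with 1 probe set per gene (18.8%) and 0 with only the 6 arrays compared (0%). Over both TRAIL states 5 were called as reported (28.4%), 3 without a filter (10.7%), 3 with quantile normalisation (28.4%), 14 with spike scaling (66.5%) and 1 of 7 with 1 probe set per gene (34.6%). Without the cell line term (no replicate block, so unpaired) 0 were called in each of these 3 comparisons (0.682%, 0.626% and 3.44%). Leaving out 1 line at a time gave 0 to 0 with taurolidine (0% to 1.47%), 0 to 0 with both agents (0% to 2.49%), and 0 to 1 over both TRAIL states (7.64% to 12.1%), with fewer arrays. Between lines 17 were called as reported (67.3%), 11 of 11 with the strict filter (79.9%), 6 of 7 with 1 probe set per gene (73.7%), and 9 to 17 with a line left out (45.4% to 47.5%). The difference between lines in the taurolidine change called 0 as reported (0.250%) and 1, TNFRSF10D, with the strict filter (3.08%) or 1 probe set per gene (1.36%). TRAIL, alone or over both taurolidine states, and the departure from additivity called 0 in all alternatives run.

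Spike scaling turned 209295_at of TNFRSF10B to -0.55 with taurolidine alone and -0.53 over both TRAIL states, and 227345_at of TNFRSF10D to -0.54. Other sign changes, 130 in all, were in values called under neither setting. Dim signals limit TNFRSF10C and TNFSF10 most, since no detection calls were used here.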

Other observations

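Single arrays stood apart in some lines, and these values have no replicate within a line. All 3 probe sets of TNFRSF10A were highest in SK-LMS-1 on the array with both agents, at 319, 309 and 206 against 206, 126 and 136 untreated, or 0.60, 1.22 and 0.56 on the log2 scale. In A-204 and VA-ES-BJ 5 of the 6 corresponding changes were below 0, from -0.60 to -0.25, and the sixth was 0.13. In VA-ES-BJ the lowest signals of 209294_x_at and 210405_x_at of TNFRSF10B and of 210654_at of TNFRSF10D were all on the array with both agents, at 2854, 2682 and 176.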
